A study of Mus musculus with 6 samples.

Results

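Kruppel-like factors (KLFs) are the subject here: 10 genes of this family of DNA-binding proteins, KLF2, KLF3, KLF4, KLF5, KLF6, KLF7, KLF9, KLF10, KLF11 and KLF13, measured in human lung tumours after an ALK inhibitor. Their members on the array are all probe sets that the platform annotation gives to 1 of these symbols alone, 32 of the 41097 probe sets with a single gene symbol and of 54675 in all. The tumours were NCI-H2228, an established human lung adenocarcinoma line with an EML4-ALK fusion, grown subcutaneously in SCID mice, which lack mature lymphocytes but keep other host cells such as macrophages and vessel cells. Mice were dosed by mouth with vehicle or with CH5424802, known today as alectinib and made to inhibit the ALK kinase, at 4 or 20 mg/kg, and the tumours were collected after 6 h. Of these 3 groups each has 2 arrays, and every tumour comes from this 1 cell line. Whether a pair of arrays stands for separate animals is not stated in the labels. A p-value here thus sets a difference between groups only against the scatter of these arrays, which may be technical.

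KLF proteins share a run of zinc fingers at their carboxy end that binds GC-rich and CACCC sequences in promoters, and differ in the rest of the protein, which recruits activators or repressors. KLF2, KLF4, KLF5, KLF6 and KLF7 can activate transcription, KLF3 represses through the corepressor CTBP, and KLF9, KLF10, KLF11 and KLF13 can recruit the SIN3A corepressor. Several are early response genes whose transcripts follow growth factor, stress or TGF-beta signals, and in epithelia family members take part on both sides of growth and differentiation.

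Intensities were deposited on a linear scale with a lower limit of 4.58 in every array, and values are given as intensities or as log2 of them. Of the 32 KLF probe sets, 4 lay at that limit in all 6 arrays, and 25 passed a level filter of a mean log2 value of at least 4. A gene is represented by its probe set with the highest mean, which leaves all 10 KLF genes among 10271 genes tested. Changes are log2 differences between group means with limma's moderated standard error (SE), and a gene passed when its p-value, adjusted by Benjamini and Hochberg over all genes tested, was under 0.05. Every tested gene is named by its symbol, and levels of different probe sets are not compared, since probes differ in brightness. In a whole tumour, fewer cells of a type and less RNA per cell cannot be told apart.

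Over the tested genes, which are not independent replicates, arrays of 1 group had correlations of 0.992 to 0.997. The 18S ribosomal RNA control at the 5' end read 1713 and 4058 with vehicle and between 374 and 637 in the 4 treated arrays, so every comparison with vehicle carries this difference. All 10 lung adenocarcinoma markers were tested genes, including NKX2-1 at 2990.2 to 3422 and EPCAM at 13258 to 21716. Their summed intensity ran from 100756 to 112246 with vehicle, from 106513 to 108599 at 4 mg/kg, then from 90269.6 to 97258 at 20 mg/kg, the dose at which 1 of the 10 passed, where 4.33% of all genes did. This was KRT18, a keratin of simple epithelia, which fell (log2 -1.54, SE 0.18, adjusted p = 0.0416), a call lost without any 1 array. EPCAM was at 0.50 at 20 mg/kg and 0.58 at 4 mg/kg, with all treated arrays above vehicle, CDH1 was at 0.23 at 20 mg/kg, and NKX2-1 and NAPSA were at 0.10 and -0.06. At 20 mg/kg KRT7 was at -0.92, KRT8 at -0.88, SFTPB at -0.45, KRT19 at -0.34 and MUC1 at -0.14. None of these 9 passed. The median change of the 10 markers at this dose was -0.24. Without adjustment 5 of the 10 had a p under 0.05, as had 2486 of 10271 genes. Of 7 endothelial markers VWF, CDH5, TEK, CLDN5 and EMCN were at or near the lower limit, as were PTPRC, CSF1R, TYROBP and CD3E of the 6 leukocyte markers on the array. Summed endothelial markers read 511 and 561 with vehicle, 459 to 566 at 4 mg/kg, then 511 and 520 at 20 mg/kg. Summed leukocyte markers stayed between 57.0 and 61.7 in all 6 arrays. ITGAM, the largest part of this sum, read 26.1 in every array, PTPRC 5.70 and TYROBP 4.58. The sum could therefore hardly vary, and its steadiness does not show a steady leukocyte content. The 7 fibroblast markers, of which LUM and PDGFRB were at or near the limit, summed to 36284 and 38901 with vehicle, 37460.2 and 36228 at 4 mg/kg, then 35613 and 40049 at 20 mg/kg. Most of that fibroblast sum was COL1A1, at 31585 to 36324 in the 6 arrays, while DCN read 63.3 in every array. At 20 mg/kg COL1A1 was at -0.02, COL3A1 at 0.29, COL1A2 at 0.28 and POSTN at 0.22, and none of them passed. The host tissue is murine, and what its RNA adds to readings of human probes was not measured.

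KLF6 was the KLF gene that passed at 20 mg/kg against vehicle, though which KLF genes passed depended on the processing, as given below. KLF6 encodes a factor that restrains cell growth in several tissues and is itself an early response gene. Its probe set 1555832_s_at read 4941 and 5293 with vehicle, 4173 and 4799 at 4 mg/kg, then 2595 and 2201 at 20 mg/kg. Both arrays of the higher dose lay below all 4 others, and both arrays of the lower dose lay below both vehicle arrays. On the log2 scale the means were 12.32 ± 0.07 with vehicle, 12.13 ± 0.14 at 4 mg/kg and 11.22 ± 0.17 at 20 mg/kg (SD, n = 2). KLF6 fell 2.14-fold at 20 mg/kg (log2 change -1.10, SE 0.12, 95% interval -1.44 to -0.75, limma adjusted p = 0.0386). At 4 mg/kg the difference from vehicle was -0.19 (interval -0.54 to 0.15, adjusted p = 0.532). Between 20 and 4 mg/kg it was -0.90 (interval -1.25 to -0.56), which did not pass over all genes (adjusted p = 0.111).

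All 5 probe sets of KLF6 read lower at 20 mg/kg than with vehicle. The second brightest, 224606_at, read 5588 and 6416 with vehicle, 3580.2 and 3818 at 4 mg/kg, then 1426 and 1733 at 20 mg/kg. Here the groups were fully separated and ordered by dose. In a fit over the 16900 probe sets past the level filter it fell 3.81-fold (log2 -1.93, SE 0.13, adjusted p = 0.0249), and 1555832_s_at passed in that fit as well (adjusted p = 0.045). These were 2 of the 25 KLF probe sets tested, where 3.19% of all probe sets passed. At 4 mg/kg 224606_at was at -0.70 (SE 0.13, adjusted p = 0.195), while 1555832_s_at was at -0.19. The difference between these 2 probe sets was not tested.

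The probe set 208961_s_at gave 782 and 1589 with vehicle, 868 and 782 at 4 mg/kg, then 428 and 401 at 20 mg/kg. Its vehicle arrays lay far apart, and 1 of them equalled a 4 mg/kg array (log2 change at 20 mg/kg -1.43, SE 0.38, adjusted p = 0.153). The dim probe sets 211610_at, at 34.8 to 46.4, and 208960_s_at, at 18.8 to 65.7, were at -0.31 and -0.90 and did not pass either. Leaving out any 1 of the 6 arrays ended the call of KLF6, with the change between -1.22 and -0.98. The adjusted p was then 0.0773 and 0.145 without vehicle replicates 1 and 2, 0.123 and 0.128 without 20 mg/kg replicates 1 and 2, and 0.0853 without either 4 mg/kg array. With 224606_at in its place, KLF6 passed at -1.93. The 18S control moved with the vehicle group as given above, and its part in the result was not tested.

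**Figure D1:**
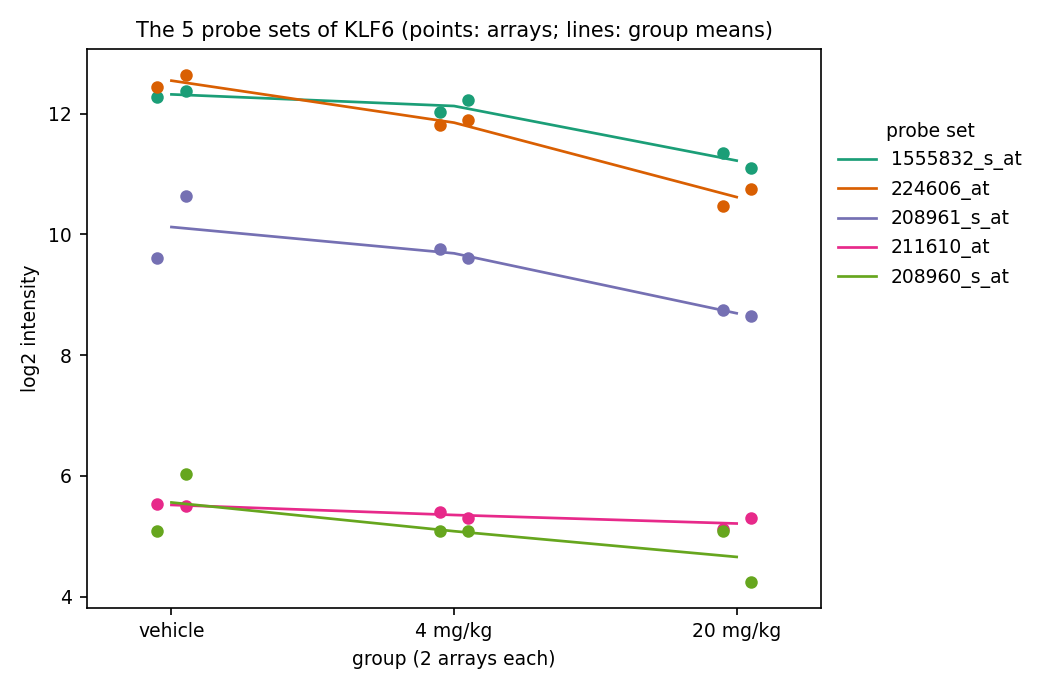
Log2 intensity of the 5 KLF6 probe sets (vertical axis) in the vehicle, 4 mg/kg and 20 mg/kg groups (horizontal axis). Points are single arrays and lines join the means of 2 arrays. The 20 mg/kg means are the lowest for every probe set, with 224606_at going from 12.55 to 11.85 and 10.62.

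The whole transcript profile of KLF6 can be set beside those of other genes. By root mean square distance between log2 profiles centred on their own means over the 6 arrays, the nearest of the tested genes outside the KLF and SP families were TOP1, DNA topoisomerase I, at 0.086 log2 units and GLRX, a glutaredoxin, at 0.088. TOP1 read 3044 and 2935 with vehicle, 2193 and 2547 at 4 mg/kg, then 1411 and 1316 at 20 mg/kg. GLRX read 6257 and 6064, then 5105 and 5582, then 3251 and 3035. Both were picked for their likeness to this profile, so their small step at 4 mg/kg and larger one at 20 mg/kg are not a separate result.

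Among the 10 KLF genes, limma called 1 at 20 mg/kg against vehicle, KLF6, and none in the other direction, where 4.33% of the 10271 genes passed, 2.26% higher and 2.07% lower. Without adjustment 6 of the 10 had a p under 0.05, as had 2486 genes in all. The arrays of both groups did not overlap for 9 of the 10, 6 higher and 3 lower at 20 mg/kg, where 50.4% of all genes did not overlap, 24.5% higher and 25.9% lower. The median size of the change, in either direction, was 0.69 log2 units over the 10 genes and 0.17 over all genes tested. For these as for all genes, the probe set was picked by its mean over all 6 arrays, treated ones included. Another set was brighter with vehicle for KLF5, KLF7, KLF9 and KLF11, which read higher here, and for KLF6. Counts, sizes and dose orders by gene, here and below, thus partly rest on sets picked through their treated readings. Over the 10 genes the median gap between both vehicle arrays was 0.39 log2 units, against 0.13 over all genes, and at 20 mg/kg it was 0.18 against 0.08. KLF6, at 0.099, and KLF13, at 0.016, had smaller vehicle gaps than that all-gene median. This difference was not tested, and 32.3% of all genes but none of the KLF genes had equal values in both arrays of at least 1 group. By single probe set the median size of the change was 0.32, against 0.17 over all probe sets, and 14 of 25 did not overlap, where 48.9% of all probe sets did not.

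**Figure D2:**
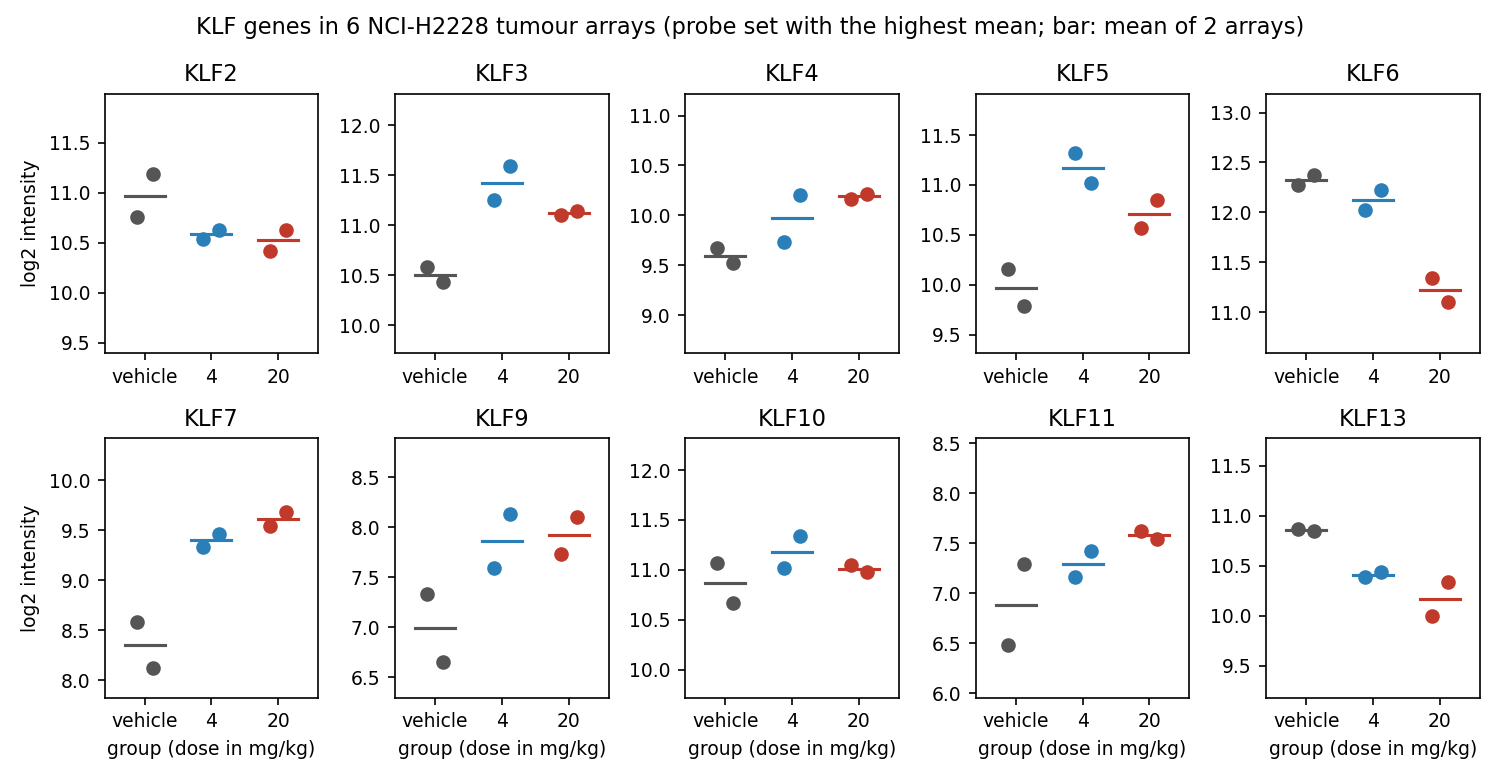
Log2 intensity of each KLF gene (vertical axis, the same span of log2 units in each panel) by group (horizontal axis), for the probe set with the highest mean. Points are single arrays and bars are means of 2 arrays. KLF6 and KLF13 have lower means at each higher dose, KLF3 and KLF5 are highest at 4 mg/kg, and the vehicle arrays of KLF9 and KLF11 lie far apart.

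Of the factors that can activate transcription beside KLF6, KLF2 read lower and KLF4, KLF5 and KLF7 read higher in the treated tumours, and none of these passed. KLF2, a factor of quiescent endothelial and T cells, read 1726 and 2330.3 with vehicle, 1490.2 and 1585 at 4 mg/kg, then 1367 and 1585 at 20 mg/kg. Both vehicle arrays lay above all 4 treated arrays, while the treated groups overlapped. The change at 20 mg/kg was -0.45 (SE 0.18, 95% interval -0.96 to 0.07, adjusted p = 0.258) and that at 4 mg/kg -0.38 (SE 0.18, adjusted p = 0.423). Without vehicle replicate 2, the higher of the pair, these values were -0.23 and -0.17. Of the 7 endothelial markers, 5 were at or near the lower limit, while PECAM1 read 348 to 456 and KDR 86.6 to 116 in the 6 arrays. Neither passed at either dose (PECAM1 -0.06 and KDR -0.05 at 20 mg/kg), and their part in the KLF2 readings was not tested. A second KLF2 probe set lay at the lower limit in all 6 arrays.

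KLF4, which promotes differentiation and growth arrest in epithelia, read 815 and 738 with vehicle, 853 and 1183 at 4 mg/kg, then 1152 and 1186 at 20 mg/kg. The treated arrays all lay above the vehicle arrays, and the doses overlapped, since the 4 mg/kg arrays were spread widely. KLF4 was at 0.59 at 20 mg/kg (SE 0.18, interval 0.07 to 1.11, adjusted p = 0.173) and at 0.37 at 4 mg/kg (adjusted p = 0.44). Its other probe set, 220266_s_at, read 56.6 in 5 arrays and 65.4 in vehicle replicate 2. That gave -0.10 against vehicle at either dose, in the opposite direction to the brighter probe set.

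KLF5, which promotes proliferation of epithelial cells, had the largest change of the family at 4 mg/kg. Its probe set 209211_at read 1141 and 883 with vehicle, 2549.5 and 2073 at 4 mg/kg, then 1520.3 and 1844 at 20 mg/kg. The 3 groups did not overlap, with the lower dose highest. At 4 mg/kg the gene was 2.29-fold higher (log2 1.20, SE 0.20, interval 0.62 to 1.77, adjusted p = 0.166), at 20 mg/kg 1.67-fold higher (log2 0.74, SE 0.20, adjusted p = 0.142), and neither passed. The difference between 20 and 4 mg/kg was -0.46 (interval -1.04 to 0.12, adjusted p = 0.506). The second probe set, 209212_s_at, gave the opposite sign. It read 1297 and 1740.1 with vehicle, 1009 and 1192 at 4 mg/kg, then 1632 and 991 at 20 mg/kg. This gave -0.45 at 4 mg/kg (SE 0.32, adjusted p = 0.582) and -0.24 at 20 mg/kg (SE 0.32), so the direction of KLF5 depends on the probe set. The difference between both probe sets was not tested.

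KLF7, best known from neuronal development, came closest to the threshold after KLF6 in the comparison of 20 mg/kg with vehicle. Its probe set 240432_x_at read 383 and 279 with vehicle, 647 and 707 at 4 mg/kg, then 749 and 825 at 20 mg/kg. All 3 groups were separated and ordered by dose. The change was 1.27 at 20 mg/kg (2.41-fold, SE 0.18, interval 0.75 to 1.79, adjusted p = 0.0559) and 1.05 at 4 mg/kg (2.07-fold, SE 0.18, adjusted p = 0.166). Without vehicle replicate 1, the higher of the pair, KLF7 passed at both doses, at 1.49 (adjusted p = 0.0349) and 1.28 (adjusted p = 0.0495). The suffix of this probe set marks probes that may also match other transcripts.

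None of the other 4 KLF7 probe sets read like it. The set 1555420_a_at gave 458 and 606 with vehicle, 261 and 453 at 4 mg/kg, then 504 and 380 at 20 mg/kg (log2 change at 20 mg/kg -0.27, SE 0.36). For 204334_at the readings were 397 and 541, then 226 and 391, then 629 and 382 (0.08, SE 0.43). In both sets the groups at 20 mg/kg and vehicle overlapped and the arrays at 4 mg/kg lay lowest on average, at -0.62 and -0.64 against vehicle. The dim sets 238482_at and 238517_at held nearly constant values, at 72.6 to 77.4 and 18.5 to 18.8. The higher readings of 240432_x_at in treated tumours thus have no match in any other KLF7 probe set.

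**Figure D3:**
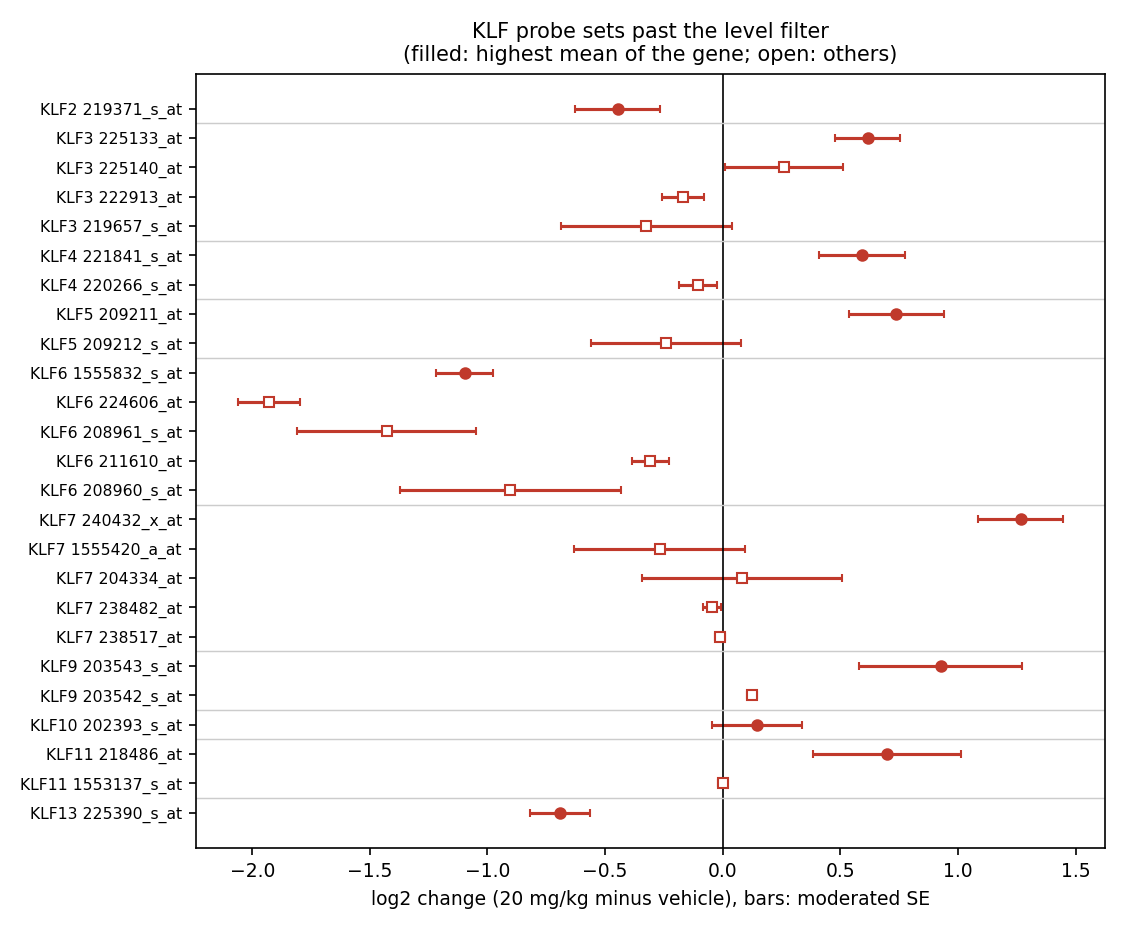
Log2 change at 20 mg/kg against vehicle (horizontal axis) for the 25 KLF probe sets past the level filter (vertical axis). Points are differences of means of 2 arrays, bars are limma's moderated SE, and filled points are the probe set with the highest mean of its gene. The 5 KLF6 sets lie below 0, while KLF3, KLF4, KLF5 and KLF7 have sets on either side.

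KLF3, the repressor that binds CTBP and limits blood cell and fat cell differentiation, read higher at both doses. Its probe set 225133_at gave 1537 and 1379.7 with vehicle, 2451 and 3096 at 4 mg/kg, then 2198 and 2268 at 20 mg/kg. The groups did not overlap, and the lower dose was highest, as for KLF5. KLF3 was at 0.92 at 4 mg/kg (1.89-fold, SE 0.14, interval 0.52 to 1.32, adjusted p = 0.151) and at 0.62 at 20 mg/kg (1.53-fold, SE 0.14, interval 0.22 to 1.01, adjusted p = 0.106). The next brightest set, 225140_at, went the same way, with 316 and 251 for vehicle, 316 and 466 at 4 mg/kg, then 316 and 359.9 at 20 mg/kg, at 0.45 and 0.26. The dim sets 222913_at, at 33.1 to 41.9, and 219657_s_at, at 12.7 to 29.0, were at -0.17 and -0.32 at 20 mg/kg. None of the 4 sets passed.

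Of the factors that can recruit SIN3A, KLF13 read lower and KLF9 and KLF11 read higher, while KLF10 had the smallest change of the family at 20 mg/kg. KLF13, known from the regulation of a chemokine gene in T cells, gave the closest pair of vehicle readings among the 10 genes. Its probe set 225390_s_at read 1865 and 1844 with vehicle, 1341 and 1382 at 4 mg/kg, then 1022 and 1292 at 20 mg/kg. All groups were separated and ordered by dose. The log2 change was -0.69 at 20 mg/kg (1.61-fold lower, SE 0.13, interval -1.05 to -0.33, adjusted p = 0.0805) and -0.45 at 4 mg/kg (SE 0.13, interval -0.81 to -0.08, adjusted p = 0.234). The other 3 KLF13 probe sets were at or near the lower limit, so a single probe set carries these values.

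KLF9, which glucocorticoid and thyroid hormones induce, read 161 and 101 with vehicle, 194 and 280.4 at 4 mg/kg, then 213 and 275 at 20 mg/kg (probe set 203543_s_at). Treated arrays lay above both vehicle arrays, while the doses overlapped. The change was 0.93 at 20 mg/kg and 0.87 at 4 mg/kg (SE 0.35, intervals -0.06 to 1.92 and -0.12 to 1.86, adjusted p = 0.227 and 0.346). Without vehicle replicate 2, the lower of the pair, these values were 0.59 and 0.53. A second set, 203542_s_at, read 131 and 132 with vehicle, 132 and 133 at 4 mg/kg, then 145 and 142 at 20 mg/kg. That is a difference of 0.12 (SE 0.02, adjusted p = 0.0864) at the higher dose and 0.01 at the lower. Its arrays agreed closely within each group, but its change was far smaller. The other 3 KLF9 sets lay under the level filter.

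KLF10 and KLF11 were first described as early genes of TGF-beta signalling. KLF10 read 2151 and 1623 with vehicle, 2073 and 2592 at 4 mg/kg, then 2118 and 2017 at 20 mg/kg, with overlap between all groups. It was at 0.15 at 20 mg/kg (SE 0.19, interval -0.41 to 0.70, adjusted p = 0.706) and at 0.31 at 4 mg/kg (interval -0.24 to 0.86, adjusted p = 0.525). These intervals do not reach a 2-fold change at either dose, that is a log2 change of 1 in either direction. They reflect only the scatter of these arrays. Without vehicle replicate 2 the value at 20 mg/kg was -0.06.

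KLF11 read 89.3 and 156 with vehicle, 143 and 171 at 4 mg/kg, then 197 and 186 at 20 mg/kg (probe set 218486_at). Both 20 mg/kg arrays were above all others, and the lower dose overlapped vehicle. KLF11 was at 0.70 at 20 mg/kg (SE 0.31, interval -0.20 to 1.60, adjusted p = 0.304) and at 0.40 at 4 mg/kg (adjusted p = 0.566). This rests on vehicle replicate 1, the low reading: the values were 0.29 and 0.00 without it, and 1.10 and 0.81 without vehicle replicate 2. The other set, 1553137_s_at, read 148 in 5 arrays and 147 in 4 mg/kg replicate 2, equal values as the authors' summary of probes can give.

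**Figure D4:**
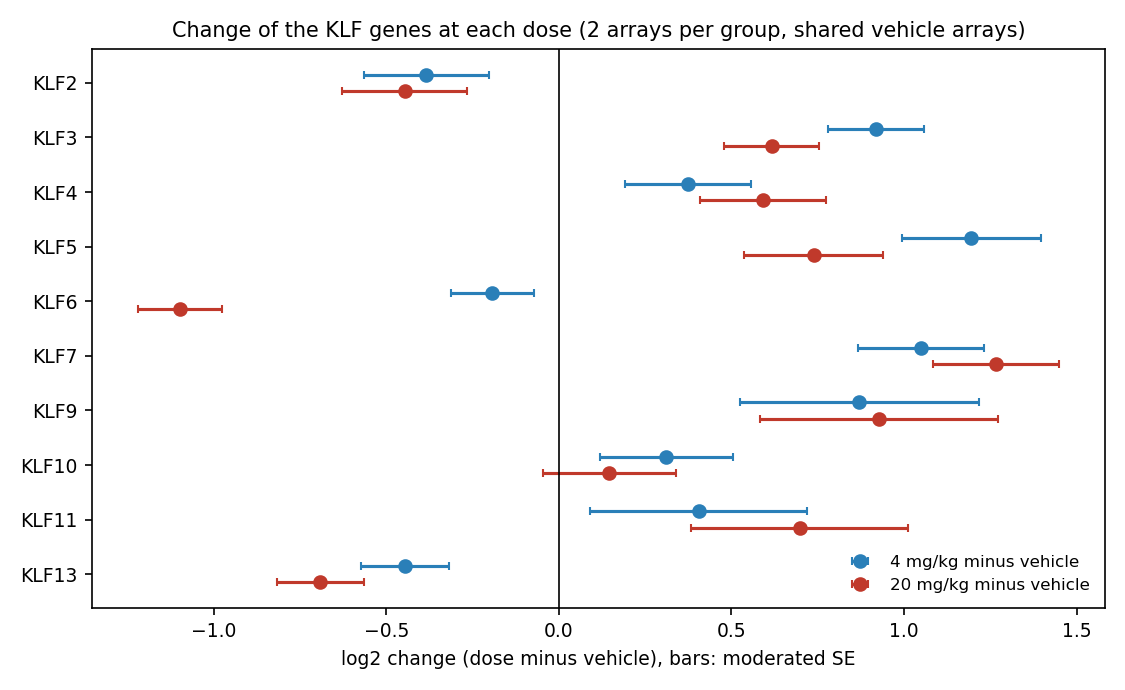
Log2 change of each KLF gene (vertical axis) against vehicle at 4 mg/kg (blue) and 20 mg/kg (red) on the horizontal axis. Points are differences of means of 2 arrays, bars are limma's moderated SE, and both doses share the vehicle arrays. KLF6 is at -1.10 at the higher and -0.19 at the lower dose, KLF3 and KLF5 are further from 0 at the lower dose, and KLF2, KLF7 and KLF9 have like values at both.

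At 4 mg/kg against vehicle limma called none of the 10 KLF genes, where 0.0584% of all genes passed. Without adjustment 4 of the 10 had a p under 0.05, KLF3, KLF5, KLF7 and KLF13, as had 1745 of 10271 genes. Arrays of both groups did not overlap for 8 KLF genes, 5 higher and 3 lower, where 37.5% of all genes did not, 22.8% higher and 14.8% lower. Of the 25 probe sets none passed in limma's fit over probe sets, where 0% of all probe sets passed. An unadjusted p under 0.05 was found for 5 of the 25, as for 2564 of all 16900 probe sets. Groups did not overlap for 14 of the 25, where 36.0% of all probe sets did not. With arrays centred on their medians KLF3 (0.82), KLF5 (1.10), KLF7 (0.95) and KLF13 (-0.54) passed at this dose.

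Comparing 20 with 4 mg/kg asks which KLF genes differ between the doses, and it does not use the vehicle arrays' means. None passed, where 0.370% of all genes did. Without adjustment 1 of 10, KLF6, had a p under 0.05, as had 1378 of 10271 genes. Groups did not overlap for 6 of the 10, KLF3, KLF5, KLF6 and KLF13 lower at 20 mg/kg and KLF7 and KLF11 higher, where 36.4% of all genes did not overlap, 13.6% higher and 22.8% lower. KLF6 at -0.90 was the largest difference, followed by KLF5 at -0.46 and KLF3 at -0.30, but KLF5 was at 0.21 by its other probe set. KLF9 was at 0.06 (interval -0.93 to 1.04) and KLF2 at -0.06 (interval -0.58 to 0.46). By the brightest probe sets, group means rose with dose for KLF4, KLF7, KLF9 and KLF11 and fell for KLF2, KLF6 and KLF13. They were highest at 4 mg/kg for KLF3, KLF5 and KLF10. Of all genes tested 16.8% had means in rising order, 22.7% in falling order and 26.3% highest at 4 mg/kg. Over the 25 KLF probe sets, means rose in 5, fell in 8 and were highest at 4 mg/kg in 4. They were lowest there in 4, such as 1555420_a_at and 204334_at of KLF7, and equal between some but not all groups in 4. With quantile normalization or centred arrays KLF6 passed between the doses too, at -0.86 (adjusted p = 0.0259) and -0.84 (adjusted p = 0.0146). By single probe set 0 of 25 passed, where 0.254% of all probe sets did. An unadjusted p under 0.05 was found for 3 of the 25, as for 2111 of all 16900 probe sets. Groups did not overlap for 9 of the 25, where 34.7% of all probe sets did not.

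How many KLF genes passed at 20 mg/kg against vehicle depended on the scaling of the arrays. After quantile normalization KLF3 (0.63), KLF4 (0.59), KLF6, KLF7 (1.25) and KLF13 (-0.68) passed, 5 of 10, with 1536 genes called in all. With centred arrays KLF5 (0.71) and KLF9 (0.90) joined them, 7 of 10, with 1958 genes called in all.

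The other genes of the family and its partners were read from lists. Of 16 further KLF and SP genes, which bind like sequences, 15 were on the array and 5 were tested: KLF12, SP1, SP2, SP3 and SP4. None passed at 20 mg/kg (3 with an unadjusted p under 0.05, as had 2486 of 10271 genes). SP3 was at 0.88 (SE 0.18, adjusted p = 0.0938) and SP1 at 0.56 (SE 0.15, adjusted p = 0.134), or 0.05 and 0.12 at the least over the alternatives. The list's median change was 0.29, where the median over all genes was 0.

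Cofactors that KLF proteins recruit had none of 10 past the test, with a median of -0.11. Of these 10, 3 had an unadjusted p under 0.05, as had 2486 of 10271 genes. CREBBP, an acetyltransferase, was at 1.24 (SE 0.18, adjusted p = 0.0568), or 0.35 with its probe sets averaged. The deacetylase HDAC2 was at -0.39 (SE 0.07, adjusted p = 0.0805), or -0.20 with its probe sets averaged. CREBBP and HDAC2 have no other set past the level filter, so both averages take in dim sets that can hardly vary. CTBP1, partner of KLF3, and SIN3A, partner of KLF9, KLF10, KLF11 and KLF13, were at -0.08 and -0.14, and both were picked for their role after their values were seen. Ubiquitin ligases that act on KLF proteins had 1 higher and 1 lower of 6 tested, where 2.26% of all genes were called higher and 2.07% lower. Without adjustment 3 of the 6 had a p under 0.05, as had 2486 of 10271 genes, and the median change was 0.24. FBXO32, which is known to target KLF4, rose (503 and 585 with vehicle, 526 and 697 at 4 mg/kg, 2172 and 1830.4 at 20 mg/kg, log2 1.88, SE 0.19, adjusted p = 0.036), and was at 0.91 with its probe sets averaged. SMURF2 fell (log2 -0.54, SE 0.06, adjusted p = 0.0382), but was at -0.02 with its next brightest probe set.

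The TGF-beta pathway around KLF10 and KLF11 had none of 10 past the test at 20 mg/kg, with a median of -0.14. Of these 10, 5 had an unadjusted p under 0.05, as had 2486 of 10271 genes. The receptor TGFBR2 was at -0.995 (SE 0.17, adjusted p = 0.0692) and the inhibitor SMAD7, which KLF10 is known to repress, at -0.98 (SE 0.24, adjusted p = 0.117). Of 5 genes of the ERK5 and MEF2 route that drives KLF2 and KLF4, only MEF2A (0.09) and MAP2K5 (-0.0013) were tested. Neither passed, and neither had an unadjusted p under 0.05. MAP2K5 read 62.0 to 62.1 in the 6 arrays, with equal values in both arrays of 2 groups, so its test could hardly show a change.

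Among 14 tested genes that the literature names as KLF targets, 1 rose and 3 fell at 20 mg/kg and 10 did not pass, where 2.26% of all genes rose and 2.07% fell. Without adjustment 10 of the 14 had a p under 0.05, as had 2486 of 10271 genes, and the median change was -0.20. The cyclin CCND1 fell (3515 and 4014 with vehicle, 3194 and 3186 at 4 mg/kg, 250.3 and 403 at 20 mg/kg, log2 -3.56, SE 0.26, adjusted p = 0.0231). FGFBP1, a carrier of fibroblast growth factors, fell (log2 -1.25, SE 0.12, adjusted p = 0.0326), as did the receptor EGFR (log2 -0.74, SE 0.07, adjusted p = 0.0291). EGFR was at -0.28 with its probe sets averaged (adjusted p = 0.0499), and at -0.94 with its next brightest probe set, which did not pass (adjusted p = 0.197). The cell cycle inhibitor CDKN1B rose (log2 1.84, SE 0.14, adjusted p = 0.0246). These genes answer to many other factors, and the list does not tell which factor acts on them. FBXO32, SMURF2 and these 4 all lost their calls without vehicle replicate 2 and without either 20 mg/kg array, with adjusted p-values from 0.0502 to 0.164. FBXO32, SMURF2, CCND1 and EGFR also lost them without vehicle replicate 1 (0.0501 to 0.0808), and all but EGFR without either 4 mg/kg array (0.0609 to 0.0944). With no level filter all 6 were lost (0.0832 to 0.119). In the comparisons of 4 mg/kg with vehicle and of 20 with 4 mg/kg limma called no member of any of the 6 lists. Over all genes 1745 and 1378 of 10271 had an unadjusted p under 0.05 in these comparisons. Of the KLF targets 1 and 7 of 14 had one, and of the TGF-beta genes 3 and 4 of 10. The counts were 2 and 2 of 5 for KLF and SP genes, 1 and 1 of 10 for cofactors, 1 and 2 of 6 for ligases, and 0 and 0 of 2 for the ERK5 route.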

How the data were processed

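Each array has 1 column of linear intensity in the table the authors deposited. The submitters' processing notes name GCRMA and R 2.10.0, and the arrays normalized as 1 set are not given there. Log2 of each intensity was used. The platform annotation, parts of which may be outdated, listed 1 symbol for 41097 probe sets, several for 1801 and none for 11777. A gene took its brightest probe set by the mean over 6 arrays, and a mean log2 of at least 4 was required, which kept 10271 of 19775 genes. All 6 arrays were fitted by dose group with limma 3.58.1 (R 4.3.3, lmFit and eBayes, two-sided tests), with 3 residual and 0.723 prior degrees of freedom, and likewise 16900 single probe sets. Steps were tested on simulated data. Precision is limited by the number of arrays.

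The KLF genes, the 6 lists of other genes, the marker lists, the tests and the 16 alternatives were chosen with earlier results of these data known. Named are all KLF genes, the 2 nearest profiles of each KLF gene past the threshold and, at 20 mg/kg against vehicle, up to 4 list members past it or else the 2 with the largest change, and KRT18. For the alternative with the next brightest probe set, that set also had to pass the level filter, and genes without one kept their brightest. Averages of probe sets took in all sets of a gene, also those under the level filter. Human sequences and genome coordinates were not used here.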

Additional observations from a re-analysis of the deposited data

How the results depend on the processing

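At 20 mg/kg against vehicle the 445 called genes became 1536 with quantile normalization, 1958 with centred arrays, 57 with no level filter, 229 with the next brightest probe set, 285 after dropping sets prone to cross-hybridise, 819 without tied features and 93 with the replicate block. Leaving out 1 array gave 5 to 802. The KLF genes called were 5, 7, 0, 1, 1, 3 and 0 under the same settings, 2 with the stricter level filter, 0 with probe sets averaged, and 0 to 1 with 1 array left out. KLF probe sets called were 6 with quantile normalization, 9 with centred arrays, 0 with no level filter, 1 after dropping those prone to cross-hybridise and 0 with the replicate block. Calls over all probe sets were not counted under these settings in any comparison. The KLF probe set counts here and below therefore have no share to be read against.

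At 4 mg/kg against vehicle the 6 called genes became 41 with quantile normalization (73.2% higher, against 3 of 6), 766 with centred arrays (67.5% higher), 3 with no level filter and 0 with the stricter filter, log2(value + 16), the next brightest probe set, averaged probe sets, no tied features or the replicate block, and 0 to 475 with 1 array left out. Centred arrays gave 4 KLF genes and 4 KLF probe sets, and leaving out 1 array 0 to 1 of each. Between the doses the 38 called genes (34.2% higher) became 333 with quantile normalization (45.3% higher), 494 with centred arrays (46.0% higher), 8 with no level filter, 21 with the next brightest probe set, 77 without tied features and 0 with the replicate block, and 0 to 218 with 1 array left out. KLF6 was then the 1 KLF gene called with quantile normalization or centring, and 2 KLF probe sets were called with either. Centring shifted an array by at most 0.14 log2 units.

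With the next brightest probe set KLF4 was at -0.10 at both doses against vehicle, KLF5 at -0.24 at 20 mg/kg, -0.45 at 4 mg/kg and 0.21 between doses, KLF7 at -0.27 and -0.62, and KLF11 at -0.0057 at 4 mg/kg. KLF7 was also at -0.27 and -0.62 when sets prone to cross-hybridise were dropped, and at -0.053 at 4 mg/kg with its probe sets averaged. KLF2 between the doses was at 0.0046 with centred arrays. With 1 array left out, KLF10 at 20 mg/kg ran from -0.057 (no vehicle replicate 2) to 0.35. Between the doses KLF2 then ran from -0.17 to 0.045 (no 20 mg/kg replicate 1), KLF4 from -0.018 (no 4 mg/kg replicate 1) to 0.45, and KLF9 from -0.21 (no 4 mg/kg replicate 1) to 0.32. For KLF9 the value was -0.13 if 20 mg/kg replicate 2 was missing. The cause of these differences was not tested. KLF6 at 20 mg/kg stayed below 0 in all 16 alternatives, at -1.93 to -0.98, with adjusted p-values from 0.00146 to 0.145, and lost its call in 9 of them. These were the 6 with 1 array left out, no level filter (0.125), averaged probe sets (0.0609) and the replicate block (0.0828). FBXO32, SMURF2, CCND1, CDKN1B, FGFBP1 and EGFR were not called with the block either (0.056 to 0.0736).

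Replicate numbers did not pair the arrays: deviations of same-numbered arrays correlated at 0.15, -0.12 and 0.13 over genes for the 3 pairs of groups. Signal over background limits the 7 KLF probe sets under the level filter, of which 4 were at the lower limit in every array.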
